A study of Mus musculus with 12 samples.

Results

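The genes described here are 10 well-known targets of the tumour suppressor p53, a transcription factor that is stabilised by DNA damage and other stress. They were chosen by name (Cdkn1a, Mdm2, Zmat3, Btg2, Pmaip1, Polk, Ccng1, Bax, Phlda3 and Trp53inp1) and looked up in the annotation of the array. The choice was made with earlier results of these data known. Of these 10 genes, 9 had a probe set with exactly 1 gene symbol and are described, out of 30142 genes on the array, and Bax is not analysed here. Each of the 9 had 1 probe set, so no choice between probe sets had to be made.

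The arrays came from 12 mice of the PKT pancreatic tumour model, with 1 array per tumour and 3 mice in each of 4 groups. The labels give PKT as an abbreviation alone and name no engineered Trp53 allele. The groups were the FAP depleted tumours and their FAP-TK controls, and the tumours labelled aSMA depleted and their aSMA-TK controls. All 4 groups carry the PKT background, so every comparison is between tumours. Both names refer to proteins of stromal fibroblasts: alpha smooth muscle actin, encoded by Acta2, and the surface protease fibroblast activation protein, encoded by Fap. TK is a viral thymidine kinase that makes the cells expressing it sensitive to ganciclovir. The labels state ganciclovir at 50 ug per kg for all 12 tumours and mark controls only as not depleted, so whether controls received the drug is not clear. Age is not given in the sources used here.

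When p53 is active it switches on genes that halt the cell cycle, genes that promote cell death, genes that help repair or tolerate DNA damage, and the ubiquitin ligase gene Mdm2, whose product degrades p53 and closes a feedback loop. In the pancreas, loss of p53 function is a common step in the progression of early lesions to carcinoma. Many of these targets also respond to other signals, so their level is not a readout of p53 alone.

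Several facts of the arrays bear on the values. Tissue identity was checked first: 7 of 10 ductal epithelium markers, Krt19 among them, were above background on all 12 arrays, where background is the 95th percentile of the negative-control probe sets of the same array. Fap, the gene of the targeted cells, was lower by 1.11 ± 0.37 (SE) log2 units in the FAP depleted tumours. Its values did not overlap those of the FAP-TK controls, which held for 2.5% of all genes on the lower side. However, Fap was above background on 0 arrays. Acta2 was at 10.13, 13.86 and 15.28 in the tumours labelled aSMA depleted, against 12.26, 10.85 and 11.12 in the aSMA-TK controls. Acta2 was thus lower than the controls in only 1 of these 3 tumours, and the animals are called the tumours labelled aSMA depleted throughout. Control-probe separation, the median of the positive-control probe sets minus that of the negative controls, was 2.69 in FAP depleted replicate 2 and 2.97 and 2.99 in FAP-TK control replicates 1 and 3. It lay at 4.32 or above on the other 9 arrays. Because these are bulk tumours, fewer cells of a type and less RNA per cell cannot be told apart.

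Among the 9 genes only Cdkn1a and Ccng1 were above background on all 12 arrays. Of all 30142 genes, 1580 were above it on all 12, so most genes on the array do not reach this cutoff throughout. The negative-control median lay above the median of all probe sets on every array. Trp53inp1 was above it on 10 arrays, Mdm2 on 9, and Btg2 and Pmaip1 on 1 each. Zmat3, Polk and Phlda3 were above it on 0 arrays, so their values lie within the range of the negative controls. Values are log2 intensities after quantile normalization, and differences are given in log2 units because the deposited range is wider than a scanner can record. Levels of different genes are not compared with each other.

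As regulatory context, RefSeq promoter windows (GRCm38.p6, 250 bases before to 50 after a start site) were available for 7 of the 10 genes, in 9 windows. Zmat3 and Trp53inp1 were not in that table, and Pmaip1 was not searched. The 10-base p53 half-site, only a part of a full p53 binding element, was searched on both strands (it reads as the same pattern on each). Full elements were not searched. The half-site was found in 5 of the 9 windows, those of Cdkn1a, Mdm2, Polk, Ccng1 and Bax. Of all 32851 windows of the same length, 8.36% held it. The windows of Btg2 and Phlda3 held none, nor did the downstream Cdkn1a window and the upstream Polk window. The 3 windows below belong to Cdkn1a, Mdm2 and Ccng1, the measured genes with a match that were above background on 9 or more arrays. Capitals mark the half-site. They lie at chr17:29090729-29091028 (plus strand), chr10:117710709-117711008 (minus strand) and chr11:40755237-40755536 (minus strand), and the first match begins at -73, -186 and -185 bases from the start site, in that order. A match is a description of the letters and not a shown binding site.
Cdkn1a: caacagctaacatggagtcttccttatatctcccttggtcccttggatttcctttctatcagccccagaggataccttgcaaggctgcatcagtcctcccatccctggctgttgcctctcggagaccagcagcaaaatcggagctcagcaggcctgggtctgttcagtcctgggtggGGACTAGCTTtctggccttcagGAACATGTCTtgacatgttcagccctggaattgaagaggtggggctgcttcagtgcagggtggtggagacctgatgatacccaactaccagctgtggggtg
Mdm2: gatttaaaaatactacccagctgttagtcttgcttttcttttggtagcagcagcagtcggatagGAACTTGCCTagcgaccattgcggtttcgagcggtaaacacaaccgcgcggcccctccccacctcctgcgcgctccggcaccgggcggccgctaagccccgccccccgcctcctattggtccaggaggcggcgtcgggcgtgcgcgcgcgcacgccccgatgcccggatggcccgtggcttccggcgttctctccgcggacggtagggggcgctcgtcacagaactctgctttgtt
Ccng1: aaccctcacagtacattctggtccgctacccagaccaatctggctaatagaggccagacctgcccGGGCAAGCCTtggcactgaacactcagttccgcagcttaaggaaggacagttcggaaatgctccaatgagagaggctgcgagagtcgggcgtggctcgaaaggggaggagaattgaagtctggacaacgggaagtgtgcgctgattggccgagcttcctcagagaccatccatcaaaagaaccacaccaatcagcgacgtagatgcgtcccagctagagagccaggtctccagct

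All 9 p53 targets were higher on average in the depleted tumours than in the controls of the same line, in both lines. In the FAP line the differences ran from 0.15 to 1.65 with a median of 0.61, where the median over all genes was 0.04 and 59.9% of all genes were higher. In the aSMA line they ran from 0.03 to 1.68 with a median of 0.77. There the median over all genes was 0.01 and 53.2% of all genes were higher. Among the 1580 genes above background on all 12 arrays, 58.7% were higher in the FAP line (median 0.08). In the aSMA line 63.5% of them were higher (median 0.16). Of all genes, 28.3% were higher in both lines. Because the targets were chosen with earlier results known, these shares are a description and not a test. No target passed the test over all genes (limma, adjusted p = 1.00 for all 9 in the FAP line and 0.944 to 0.994 in the aSMA line), and that test called 0 genes (0%) in either line. At an unadjusted p under 0.05, 4 of the 9 were higher in the FAP line (2.65% of all genes) and 0 in the aSMA line (2.47%).

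Averaged over the 9 genes, the tumours stood at 10.03, 9.83 and 10.52 in the FAP depleted group, against 9.51, 9.63 and 9.20 in the FAP-TK controls. The same mean was 10.49, 9.74 and 9.32 in the tumours labelled aSMA depleted, against 9.19, 8.95 and 9.31 in the aSMA-TK controls. The means of depleted tumours lay above those of all controls of their line, by a narrow margin for replicate 3 of the tumours labelled aSMA depleted. FAP depleted replicate 3 was among the top 3 of the 12 tumours for 7 of the 9 genes, and replicate 1 of the tumours labelled aSMA depleted for 6 of them.

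**Figure D1:**
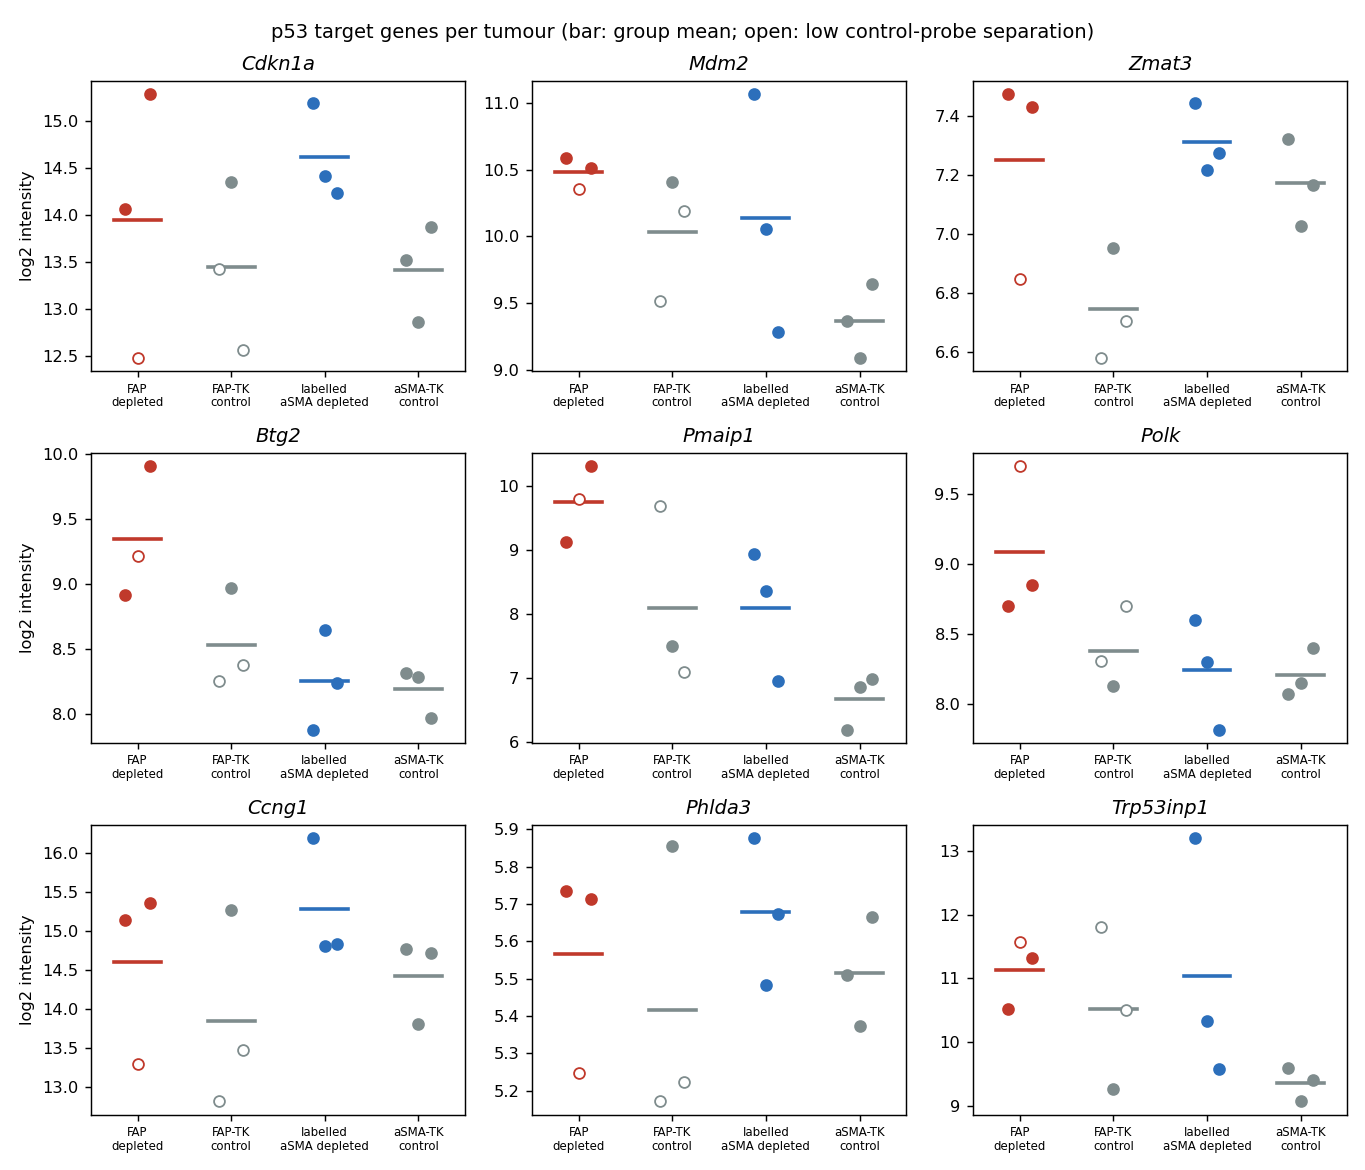
Log2 intensity (vertical axes) of the 9 measured p53 target genes in each of the 12 tumours, grouped along the horizontal axes; bars are group means of 3 tumours and open circles are the 3 arrays of low control-probe separation. The tumours labelled aSMA depleted lie above their controls without overlap for Cdkn1a and Ccng1, while Zmat3, Ccng1 and Phlda3 are low on the open-circle arrays.

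The cell cycle genes come first. Cdkn1a encodes p21, the inhibitor of cyclin-dependent kinases that carries out much of the p53 arrest. In the tumours labelled aSMA depleted it was at 15.19, 14.41 and 14.23, against 13.52, 12.86 and 13.87 in the aSMA-TK controls. The groups did not overlap, which held for 7.43% of all genes in this direction, and the difference was 1.20 ± 0.68 (SE, n = 3 per group; adjusted p = 0.944; exact permutation p = 0.1, two-sided, the smallest that 3 against 3 allows). It was at 14.06, 12.48 and 15.28 in the FAP depleted tumours, against 13.42, 14.35 and 12.57 in the FAP-TK controls. These groups overlapped over nearly their whole range, with the lowest of the 12 tumours in the depleted group, and the difference of 0.50 ± 0.68 had an exact permutation p of 0.8. Leaving out the depleted tumour at 15.28 gave -0.17, and leaving out the one at 12.48 gave 1.23.

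Ccng1 encodes cyclin G1, a direct p53 target that takes part in the feedback on p53 through Mdm2. It was at 16.20, 14.81 and 14.84 in the tumours labelled aSMA depleted, against 14.77, 13.81 and 14.72 in the aSMA-TK controls. The groups did not overlap, but the lowest depleted tumour and the highest control nearly met, and the difference was 0.85 ± 0.73 (exact permutation p = 0.1). Without replicate 1 of the tumours labelled aSMA depleted it was 0.39. Ccng1 was at 15.15, 13.30 and 15.37 in the FAP depleted tumours, against 12.82, 15.28 and 13.47 in the FAP-TK controls, and the groups overlapped (difference 0.75 ± 0.73, exact permutation p = 0.6). Each of the 3 low values came from an array of low control-probe separation, and without those 3 arrays the difference was -0.02.

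Btg2 encodes an antiproliferative protein that is induced by p53 and also behaves as an immediate early gene. It was at 8.92, 9.22 and 9.91 in the FAP depleted tumours, against 8.25, 8.97 and 8.37 in the FAP-TK controls. Only the lowest depleted and the highest control tumour overlapped, and the difference was 0.82 ± 0.29 (exact permutation p = 0.2, unadjusted limma p = 0.0193, adjusted p = 1.00). Btg2 was at 7.88, 8.65 and 8.24 in the tumours labelled aSMA depleted, against 8.31, 8.28 and 7.97 in the aSMA-TK controls. There the difference was 0.07 ± 0.29 (exact permutation p = 1) and was -0.13 without replicate 2 of the tumours labelled aSMA depleted and -0.04 without aSMA-TK control replicate 3. The difference between the Btg2 effects of the lines, aSMA minus FAP, was -0.75 ± 0.41 (adjusted p = 0.841).

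Mdm2, the feedback gene, was at 10.59, 10.36 and 10.51 in the FAP depleted tumours, against 9.51, 10.41 and 10.19 in the FAP-TK controls. The depleted tumours lay close together at the upper end of the control range, with a difference of 0.45 ± 0.39 (exact permutation p = 0.2), which was 0.19 without FAP-TK control replicate 1. Mdm2 was at 11.06, 10.06 and 9.29 in the tumours labelled aSMA depleted, against 9.37, 9.09 and 9.64 in the aSMA-TK controls. The difference of 0.77 ± 0.39 (exact permutation p = 0.3) rested in part on the tumour at 11.06 and was 0.30 without it.

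Of the genes tied to cell death, Pmaip1 encodes NOXA, a BH3-only protein that promotes apoptosis by binding MCL1. It was at 9.13, 9.80 and 10.31 in the FAP depleted tumours, against 9.69, 7.50 and 7.10 in the FAP-TK controls. Pmaip1 was at 8.95, 8.37 and 6.96 in the tumours labelled aSMA depleted, against 6.20, 6.86 and 6.99 in the aSMA-TK controls. In each line 2 of 3 tumours of a group were clear of the other group and 1 reached into it. The differences were 1.65 ± 0.70 in the FAP line (unadjusted limma p = 0.0406) and 1.41 ± 0.70 in the aSMA line (0.0721), both with an exact permutation p of 0.2. The spread of Pmaip1 within groups was also large, at percentile 95.8 of all genes. Averaged over both lines, each within itself, Pmaip1 was higher by 1.53 ± 0.49, above 99.9% of all genes (exact permutation p = 0.025 with labels exchanged within lines, where the smallest possible is 0.005; adjusted p = 1.00).

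Trp53inp1 encodes a stress-induced nuclear protein that helps activate p53 and is known in mouse for its induction in acute pancreatitis. In the tumours labelled aSMA depleted it was at 13.21, 10.33 and 9.57, against 9.60, 9.07 and 9.40 in the aSMA-TK controls. The 3 controls lay close together while the depleted tumours spread widely, and the difference of 1.68 ± 0.88 (exact permutation p = 0.2) was 0.60 without the tumour at 13.21. Trp53inp1 was at 10.52, 11.57 and 11.31 in the FAP depleted tumours, against 11.81, 9.26 and 10.51 in the FAP-TK controls. Here the groups overlapped fully, with a difference of 0.61 ± 0.88 (exact permutation p = 0.6), which was -0.02 without FAP-TK control replicate 2. Phlda3, which encodes a pleckstrin-homology protein that restrains AKT, differed least in the FAP line. It was at 5.73, 5.25 and 5.71 in the FAP depleted tumours, against 5.17, 5.86 and 5.22 in the FAP-TK controls, and at 5.88, 5.48 and 5.67 in the tumours labelled aSMA depleted, against 5.51, 5.37 and 5.66 in the aSMA-TK controls. The differences were 0.15 ± 0.21 and 0.16 ± 0.21, both smaller than their errors, at a level within the range of the negative controls, and the FAP line difference was -0.13 without the 3 arrays of low separation.

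Of the genes for RNA and DNA maintenance, Zmat3 encodes an RNA-binding zinc finger protein that regulates splicing downstream of p53. It was at 7.47, 6.85 and 7.43 in the FAP depleted tumours, against 6.58, 6.95 and 6.70 in the FAP-TK controls. All but FAP depleted replicate 2 were above the controls, and the difference was 0.50 ± 0.17 (unadjusted limma p = 0.0168, exact permutation p = 0.2). Zmat3 was at 7.44, 7.22 and 7.27 in the tumours labelled aSMA depleted, against 7.32, 7.03 and 7.17 in the aSMA-TK controls, a difference of 0.14 ± 0.17 that was smaller than its error. Polk encodes DNA polymerase kappa, which copies past damaged bases and is induced by p53 in mouse. It was at 8.69, 9.70 and 8.85 in the FAP depleted tumours, against 8.30, 8.13 and 8.69 in the FAP-TK controls, so that the groups nearly parted at 8.69. The difference was 0.71 ± 0.29 (unadjusted limma p = 0.0335, exact permutation p = 0.2), and 0.40 without FAP depleted replicate 2, the array of lowest separation. Polk was at 8.60, 8.30 and 7.81 in the tumours labelled aSMA depleted, against 8.07, 8.15 and 8.39 in the aSMA-TK controls, a difference of 0.03 ± 0.29.

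**Figure D2:**
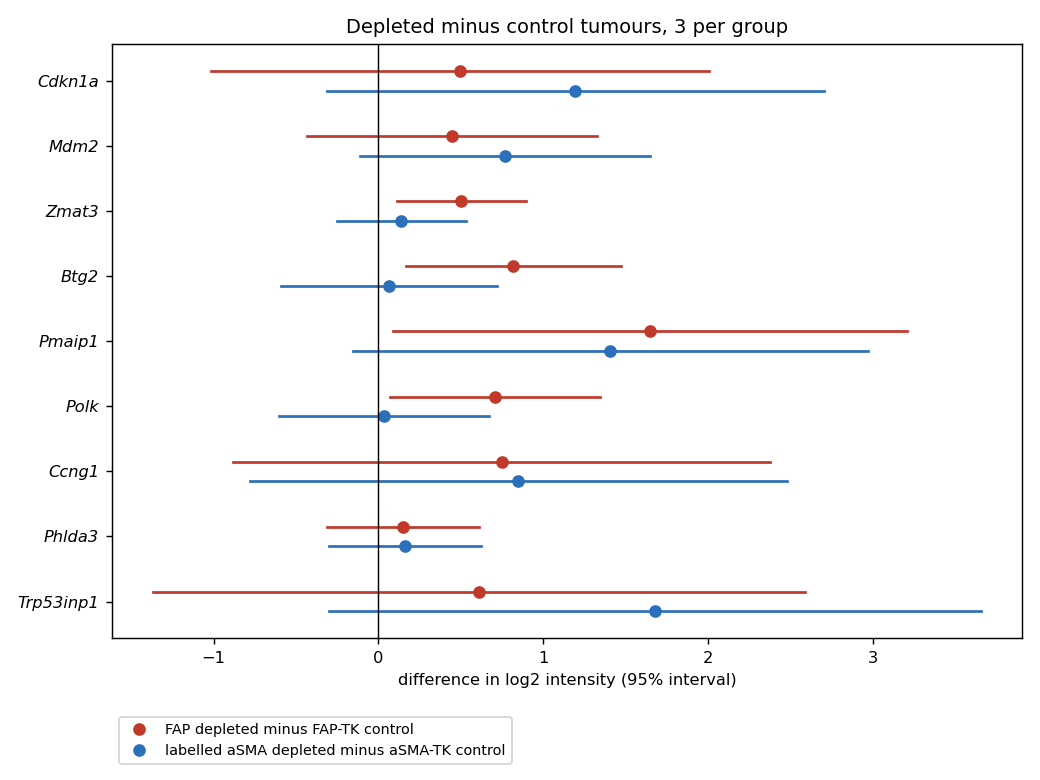
Difference in log2 intensity (horizontal axis) of each p53 target between depleted and control tumours, with the 95% interval from the limma fit, 3 tumours per group. All 18 points lie at or above 0.03; the intervals of Zmat3, Btg2, Pmaip1 and Polk in the FAP line leave out 0, before adjustment over all genes.

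Taking both lines together averaged the 2 within-line differences, which a large difference in 1 line alone can carry. It used 6 tumours labelled depleted and 6 control tumours, compared within lines. All 9 were higher, with a median of 0.61, while 60% of all genes were higher with a median of 0.03. Among the genes above background on all 12 arrays, 64.1% were higher with a median of 0.09. Besides Pmaip1, the smallest exact permutation p belonged to Zmat3, higher by 0.32 ± 0.12 (p = 0.04), and Mdm2, higher by 0.61 ± 0.28 (p = 0.06). The other 6 had exact permutation p between 0.115 and 0.305, and none of the 9 passed over all genes (limma adjusted p = 1.00, with 0 genes called in all). Pmaip1 and Zmat3 had an unadjusted p under 0.05, which held for 2.1% of all genes on the higher side. The difference between the 2 depletion effects, aSMA minus FAP, was above 0 for 5 of 9 targets (46.4% of all genes) and did not pass for any of them (limma adjusted p from 0.841 to 0.996), nor for any other gene. Its interval ran from -1.68 to 0.17 for Btg2 and from -1.44 to 2.84 for Cdkn1a, so that sizable differences between the lines remain possible.

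Across lines, the comparisons describe tumours whose arrays also differed in background, and line and array set cannot be told apart. In the aSMA-TK controls against the FAP-TK controls, 3 of 9 targets were higher (58.2% of all genes) and 0 were called, where 7.8% of all genes were called. This count depends on the scaling: for the values as deposited, where 12443 genes were called, 6 of the 9 passed, all lower in the aSMA-TK controls. These were Btg2, Phlda3, Mdm2, Polk, Pmaip1 and Zmat3 (limma adjusted p = 0.00369, 0.00928, 0.0141, 0.0202, 0.0215 and 0.0291). Pmaip1 was lower in the aSMA-TK controls by a difference of -1.42 ± 0.70 without overlap (adjusted p = 0.216), which was -0.62 without FAP-TK control replicate 1, and Zmat3 was higher by 0.43 ± 0.17 without overlap (adjusted p = 0.148). Non-overlap held for 13.8% of all genes on the lower side and 21.3% on the higher side. The Zmat3 difference turned to -0.07 with median centring and to -0.52 for the values as deposited, where it passed, while array weights gave 0.48, which passed on the higher side (limma adjusted p = 0.0334).

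Between the depleted groups, 4 of 9 targets were higher in the tumours labelled aSMA depleted (55.2% of all genes) and 0 were called, where 5.18% of all genes were called. Btg2, Pmaip1 and Polk were lower in the tumours labelled aSMA depleted than in the FAP depleted tumours without overlap, by differences of -1.10 ± 0.29, -1.66 ± 0.70 and -0.84 ± 0.29 (adjusted p = 0.0617, 0.181 and 0.110), where 14.8% of all genes did the same. The Polk difference was -0.53 without FAP depleted replicate 2, and that of Pmaip1 was -1.09 without replicate 3 of the tumours labelled aSMA depleted. Btg2 passed at an adjusted limma p of 0.0231 with median centring, 0.000863 for the values as deposited and 0.0488 without FAP-TK control replicate 2, and lay between 0.0602 and 0.148 under the other alternatives. For the values as deposited, where 14287 genes were called, Polk, Zmat3, Phlda3 and Pmaip1 also passed, all lower in the tumours labelled aSMA depleted (limma adjusted p = 0.00506, 0.00916, 0.0146 and 0.0218). The signs of Zmat3 and Phlda3 were turned there, at -0.67 and -0.60.

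Pairs of targets were also compared from tumour to tumour. Over the 9 tumours on arrays of normal separation, a set chosen after seeing the data, all 36 pairs correlated positively. The median Pearson r was 0.60, with a range of 0.05 to 0.88. Over the same tumours, 50.5% of all pairs of genes on the array correlated positively. That share is given as a description, because the 9 genes were chosen with earlier results known. After adjustment over the 36 pairs, 10 passed by Pearson r, 6 by Spearman rho and 5 by both (exact permutation tests, two-sided). The 5 were Mdm2 with Ccng1, Ccng1 with Phlda3, Cdkn1a with Ccng1, Pmaip1 with Polk, and Mdm2 with Pmaip1. Btg2 was the gene with the weakest ties, with r at or below 0.16 to Zmat3, Ccng1, Phlda3 and Trp53inp1. These tumours include depleted and control animals of both lines, so the correlations carry group differences as well as variation within groups. With each group's mean taken off, the median r of the 36 pairs over all 12 tumours was 0.21, given as a description.

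For Mdm2 with Ccng1, r was 0.88 (exact p = 0.000617, adjusted p = 0.0222) and rho 0.83 (exact p = 0.00827, adjusted p = 0.0496), and r was 0.84 without the 2 tumours farthest from the median of Mdm2. Within lines, low-separation arrays included, it was 0.78 in the 6 FAP tumours and 0.90 in the 6 aSMA tumours. With group means taken off over all 12 tumours, r was 0.67 for this pair and 0.84 for Cdkn1a with Ccng1. Replicate 1 of the tumours labelled aSMA depleted was highest of its line for Cdkn1a, Mdm2 and Ccng1. The within-line r without that tumour was not computed. For Cdkn1a with Ccng1, r was 0.88 (adjusted exact p = 0.0258) and rho 0.85 (adjusted exact p = 0.0437), r was 0.85 without the 2 farthest tumours, and within lines it was 0.83 and 0.93 in the FAP and aSMA tumours. For Pmaip1 with Polk, r was 0.87 (adjusted exact p = 0.0258) and rho 0.85 (adjusted exact p = 0.0437), but r went to 0.68 without the 2 farthest tumours and was 0.44 within the FAP line, 0.70 within the aSMA line and 0.27 with group means taken off. Mdm2 with Pmaip1 had an r of -0.06 within the FAP line, 0.90 within the aSMA line and 0.13 with group means taken off.

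**Figure D3:**
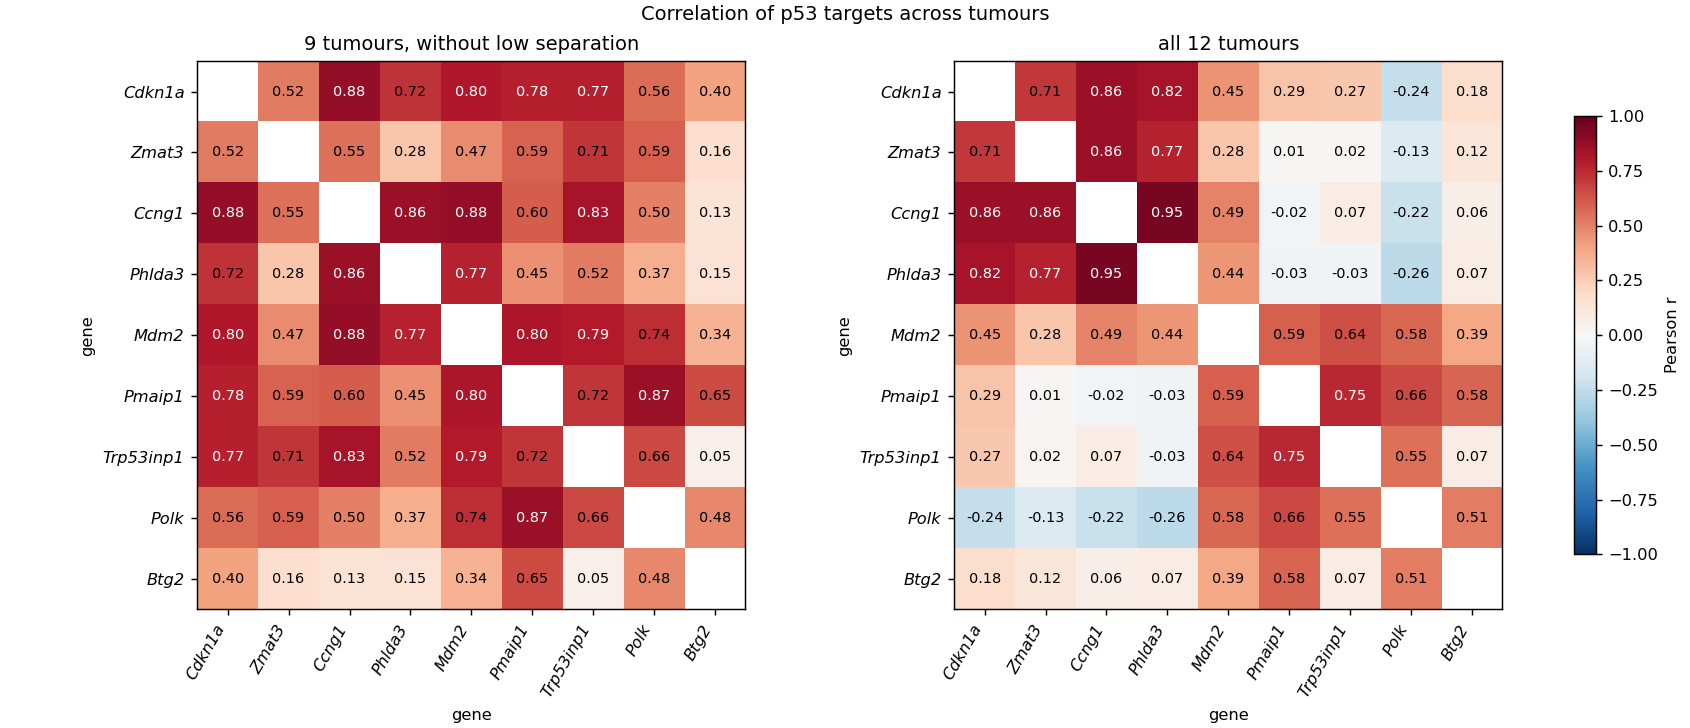
Pearson r between each pair of the 9 p53 targets over the 9 tumours without low control-probe separation (left) and over all 12 tumours (right); rows and columns are genes and colour runs from -1 to 1. On the left all 36 values are above 0, while on the right 7 are below 0 and Cdkn1a, Zmat3, Ccng1 and Phlda3 form a block apart from Pmaip1, Trp53inp1 and Polk.

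Over all 12 tumours the pattern was looser and fell into blocks. Then 29 of 36 pairs were positive with a median r of 0.34, given as a description because the arrays fall into 2 sets by separation. In the permutation tests planned for these 12 tumours, 6 pairs passed by r and 7 by rho after adjustment. Mdm2 with Ccng1 (r = 0.49) and Mdm2 with Pmaip1 (r = 0.59) passed by neither. Cdkn1a, Zmat3, Ccng1 and Phlda3 correlated with each other at r between 0.71 and 0.95. Pmaip1, Trp53inp1 and Polk correlated with each other at r between 0.55 and 0.75, and the values between the blocks ran from -0.26 to 0.29.

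The 3 arrays of low separation moved with these blocks. Phlda3 was between 5.17 and 5.25 on them, against 5.37 to 5.88 on the other 9 arrays, and Ccng1 between 12.82 and 13.47, against 13.81 to 16.20. Zmat3 was between 6.58 and 6.85 on them, against 6.95 to 7.47, so that for these 3 genes the sets of arrays did not overlap. Of all genes, 13.5% had all 3 of these arrays below the other 9. Polk, in contrast, reached its highest value, 9.70, on the array of lowest separation. Since the arrays fall into 2 sets by separation, no correlation with it is given over all 12. Over the other 9 arrays no target passed (r between -0.62 and 0.06, lowest adjusted p = 0.397 by r and 0.342 by rho, exact permutation tests). Of the 3 arrays, 2 are FAP-TK controls and 1 is FAP depleted. Without these 3 arrays the median difference in the FAP line was 0.45 with 7 of 9 targets higher, for 2 depleted tumours against 1 control.

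**Figure D4:**
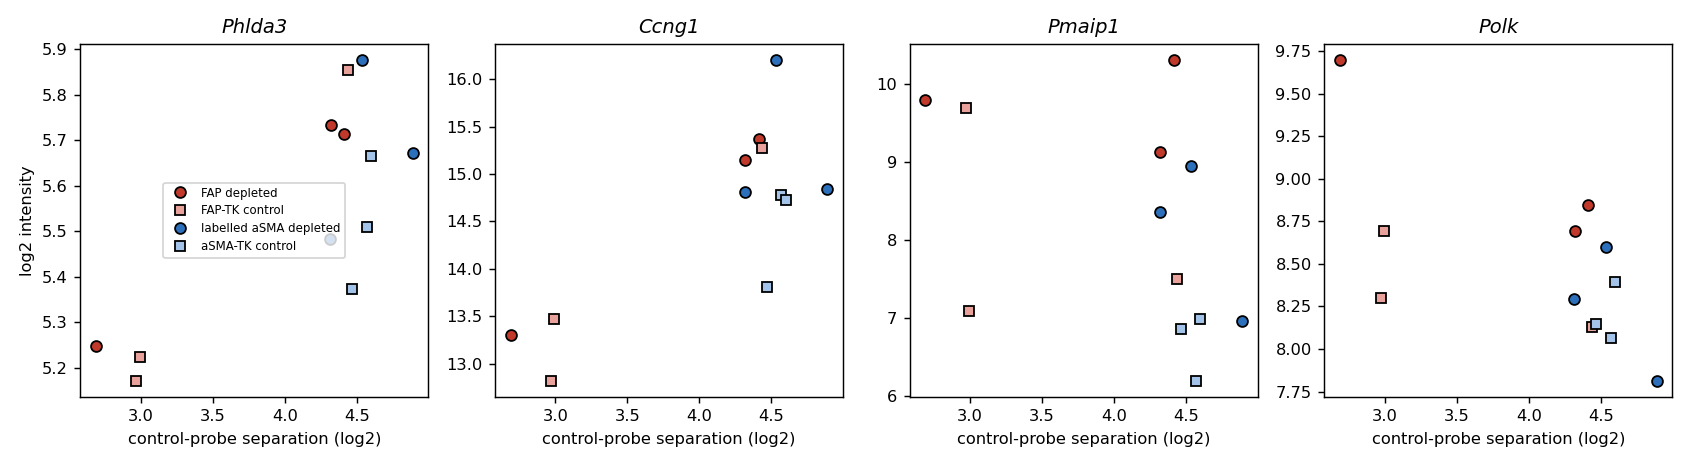
Log2 intensity (vertical axes) of Phlda3, Ccng1, Pmaip1 and Polk against control-probe separation of the array in log2 units (horizontal axes), 1 point per tumour, circles for depleted and squares for control tumours. The 3 arrays under 3.5 hold the lowest Phlda3 and Ccng1 values, while Pmaip1 lies between 7.10 and 9.80 on them, against 6.20 to 10.31 on the other 9, and Polk between 8.30 and 9.70, against 7.81 to 8.85.

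Of the 28 other p53 targets listed, 26 were measured, with 0 called in either line. In the FAP line 21 were higher (80.8%, median 0.21), against 59.9% of all genes. In the aSMA line 15 were higher (57.7%, median 0.14), near the 53.2% of all genes. Among genes above background on all 12 arrays, 58.7% were higher in the FAP line and 63.5% in the aSMA line. Ercc5, a nuclease gene of nucleotide excision repair, was at 7.76, 7.18 and 7.76 in the FAP depleted tumours, against 6.82, 7.10 and 7.00 in the FAP-TK controls, without overlap (difference 0.59 ± 0.19, adjusted p = 1.00; 5.6% of all genes did not overlap on the higher side). Averaged over both lines, the death receptor gene Eda2r was higher by 0.68 ± 0.25 (exact permutation p = 0.03) and Ercc5 by 0.40 ± 0.14 (exact permutation p = 0.035). In the limma test of this mean effect, 0 of the 26 were called. Of these 26 genes 21 were above background on no array, Eda2r and Ercc5 among them. Most of the 26 could thus be read only within the range of the negative controls.

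Regulators of p53 were measured for 11 of 12 listed genes, Trp53 itself not being analysed here. Of these 11 genes 8 were above background on no array, Chek1 and Cdkn2a among them. In all, 7 were higher in the FAP line (63.6%, median 0.07), against 59.9% of all genes. In the aSMA line 9 were higher (81.8%, median 0.10), against 53.2% of all genes, with 0 called in either line. Mdm4, which encodes an inhibitor of p53 related to MDM2, was at 9.70, 11.23 and 9.76 in the FAP depleted tumours, against 10.88, 9.82 and 11.02 in the FAP-TK controls. It was at 10.80, 9.87 and 8.84 in the tumours labelled aSMA depleted, against 9.28, 9.25 and 9.47 in the aSMA-TK controls, and overlapped in both lines. Cdkn2a, which encodes the MDM2 inhibitor ARF and the kinase inhibitor p16, differed by 0.35 ± 0.32 and 0.10 ± 0.32 in the FAP and aSMA lines. The kinase gene Hipk2, whose product phosphorylates p53, was higher by 0.80 ± 0.52 in the FAP line and 0.98 ± 0.52 in the aSMA line (mean effect 0.89 ± 0.37, exact permutation p = 0.045, adjusted p = 1.00). Chek1, a checkpoint kinase gene, was lower in the FAP depleted tumours without overlap (difference -0.43 ± 0.15; 2.5% of all genes did not overlap on the lower side) and differed by 0.03 ± 0.15 in the aSMA line.

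Cell cycle genes of a list known to be held down by p21 through the DREAM complex were lower on average in both lines. This held for 11 of 11 measured genes in the FAP line (median -0.20) and 10 of 11 in the aSMA line (median -0.27), with 0 called. Of all genes, 59.9% and 53.2% were higher. The list mean was 5.95, 5.36 and 6.09 in the FAP depleted tumours, against 5.91, 6.05 and 6.15 in the FAP-TK controls. It was 5.89, 6.43 and 7.18 in the tumours labelled aSMA depleted, against 6.49, 7.31 and 6.44 in the aSMA-TK controls. The groups overlapped in both lines, with the lowest tumour of each line in the depleted group. In the FAP line this was replicate 2, on the array of lowest control-probe separation. Cdkn1a there was the lowest of all 12 tumours (12.48). The other FAP depleted tumours, at 5.95 and 6.09, lay within the control range. The lowest aSMA tumour was replicate 1 of those labelled aSMA depleted, with the highest Cdkn1a of its line (15.19). A link to Cdkn1a was not tested. The proliferation marker Mki67 differed by -0.71 ± 0.58 in the FAP line, and Top2a, a topoisomerase gene of dividing cells, by -0.72 ± 0.53 in the aSMA line. Of these 11 genes 7 were above background on no array. In the BCL2 family, 8 of 10 genes were higher in each line (medians 0.11 and 0.16, 0 called). Bcl2l1, which encodes the survival protein BCL-XL, was at 9.71, 10.14 and 10.20 in the FAP depleted tumours, against 9.46, 8.52 and 8.86 in the FAP-TK controls, without overlap. Bcl2l1 was at 10.35, 9.67 and 9.03 in the tumours labelled aSMA depleted, against 9.03, 8.94 and 8.88 in the aSMA-TK controls. Its mean effect over both lines was 0.90 ± 0.23 (exact permutation p = 0.01, adjusted p = 1.00).

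**Figure D5:**
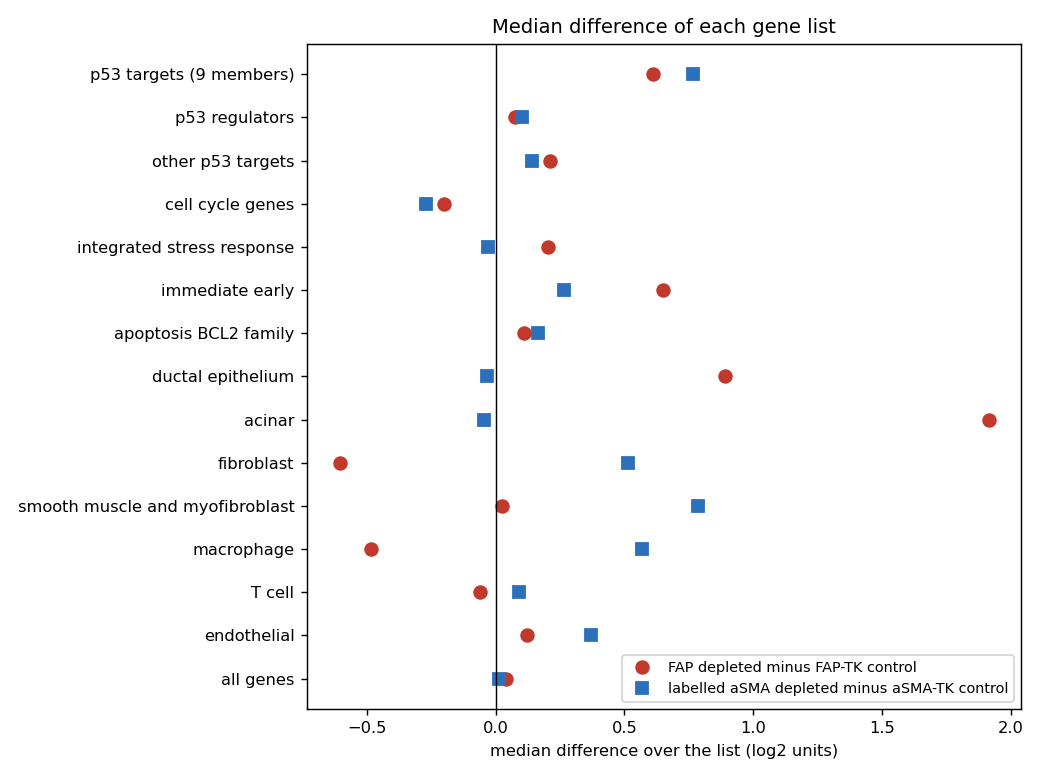
Median difference in log2 units (horizontal axis) over the measured genes of each list, for FAP depleted minus FAP-TK control tumours (circles) and for tumours labelled aSMA depleted minus aSMA-TK control tumours (squares). The p53 targets stand at 0.61 and 0.77, the other p53 targets at 0.21 and 0.14, and the medians of the ductal, acinar, fibroblast, macrophage and T cell lists lie on opposite sides of 0 in the 2 lines, while those of the smooth muscle and endothelial lists do not.

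Other gene groups differed alongside the targets, and their part in the result was not tested. In the FAP line 10 of 10 ductal genes (median 0.89) and 11 of 11 acinar genes (median 1.92) were higher, and 9 of 9 fibroblast genes (median -0.61) and 7 of 8 macrophage genes lower in the depleted tumours. The mean of the acinar genes, which encode digestive enzymes, ran from 8.94 to 10.64 in the FAP depleted tumours. In the FAP-TK controls it ran from 7.56 to 9.36. The ductal mean ran from 13.76 to 15.51, against 13.45 to 14.52. The 3 arrays of low control-probe separation held the lowest ductal means of all 12 (13.45, 13.76 and 13.90). The fibroblast mean was 9.47, 7.33 and 9.65 in the FAP depleted tumours, against 8.74, 10.14 and 9.92 in the FAP-TK controls. For macrophage genes it was 10.67, 7.43 and 10.73, against 7.80, 11.67 and 11.26. FAP depleted replicate 2 and FAP-TK control replicate 1, lowest for both lists, were on low-separation arrays. In the aSMA line the targets were higher while ductal (5 of 10 higher, median -0.03) and acinar genes (5 of 11, median -0.04) were divided, and 9 of 9 fibroblast (median 0.51) and 8 of 8 macrophage genes (median 0.57) were higher. Endothelial genes were higher at 4 of 6 in the FAP line and 5 of 6 in the aSMA line, smooth muscle genes at 3 of 6 and 6 of 6, and T cell genes, of which 5 of 5 were above background on no array, at 1 of 5 and 4 of 5. None of these genes was called in either line. Of all genes, 59.9% were higher in the FAP line and 53.2% in the aSMA line.

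The immediate early genes, switched on within minutes by growth factors or handling, were higher at 8 of 8 in the FAP line (median 0.65) and 5 of 8 in the aSMA line (median 0.27). Their mean was 10.30 in FAP depleted replicate 3, the tumour with the highest mean of the p53 targets, against 5 values between 6.56 and 7.68 in the rest of the FAP line. Without that tumour the median difference of the targets in the FAP line was 0.44. Integrated stress response genes were higher at 7 of 8 in the FAP line (median 0.20) and 3 of 8 in the aSMA line (median -0.03). Of all genes, 59.9% and 53.2% were higher in these lines. In the aSMA line replicate 1 of the tumours labelled aSMA depleted, highest of its line for 8 of the 9 targets, had the lowest acinar mean of all tumours (6.45, against 9.71 to 12.39 in the other 5 aSMA tumours) and the highest T cell mean (5.07). Without it the median difference of the targets in the aSMA line was 0.30, against 0.77 with it.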

How the data were processed

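The deposited values, made by the authors from 12 one-colour arrays, were taken as log2 from their range (1.64 to 19.93). No header or label states how background, summarization or normalization were handled before deposit. A limma step, with no version, appears among the submitters' processing notes. After 6732 control probe sets were left out, 65956 probe sets were quantile normalized, because the column medians differed between arrays. Probe sets with exactly 1 symbol in the platform annotation (30604 of 32750 listed, 2146 with several, 33206 unlisted) were named, 827 symbols were updated through RefSeq gene identifiers (GRCm38.p6), and the probe set of highest mean was kept for 30142 genes. A model with 1 mean per group was fitted to all 12 arrays with limma 3.58.1 (R 4.3.3), with moderated two-sided tests and Benjamini-Hochberg adjustment over all genes, called at an adjusted p under 0.05, and checked on simulated data. The mean depletion effect is the average of the within-line differences. Exact permutation tests are two-sided, 3 against 3 or within lines. Correlations over 9 tumours were tested over all orders. Replicates are separate mice per the series text and are numbered in the order of deposit, and the number of arrays limits precision.

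The members and gene lists were chosen with earlier results of these data known. Named genes were the 10 members, Fap, Acta2, Trp53, Mdm4, Cdkn2a and, from each list, up to 3 of smallest unadjusted p per depletion comparison or mean effect. Correlations were planned for 45 pairs, and 36 could be computed without Bax. Alternatives were median centring, values as deposited, an offset of 50, a filter that drops dim genes, averaged probe sets, the groups compared alone, trended and robust variance, array weights, separation as a covariate, the low-separation arrays left out, and each array left out in turn. The correlations without low-separation arrays were added after seeing the data.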

Additional observations from a re-analysis of the deposited data

How the results depend on the processing

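No target passed in either depletion comparison or in their mean under any alternative run, and the target median of both depletion comparisons was above 0 under each. Other values follow as log2 differences, and the cause was not tested.

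Between the depleted groups (aSMA minus FAP; 1562 genes called), the number called was 3391 with median centring, 14287 as deposited, 49 with the dim filter, 1 with only the groups compared, 4502 with array weights and 634 without low-separation arrays. Between the controls (2350 called) it was 5769, 12443, 67, 212, 6658 and 357 in the same order, 1543 with the offset and 1012 with separation as covariate. In the FAP line, 13 were called without low-separation arrays, against 0. The target median between the depleted groups was -0.72 as deposited. Between the controls it was -0.63 with centring, -1.08 as deposited, -0.59 with the covariate and -0.78 without low-separation arrays. For the difference of effects it was -0.070 with the dim filter and -0.30 with array weights. Targets higher numbered 2 (centring), 2 (deposited), 1 (weights), 1 (covariate) and 2 (low-separation arrays out) between the depleted groups, 2 with weights for the difference of effects and 1 as deposited between the controls.

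With median centring, the sign turned for Ccng1 (-0.13) and Pmaip1 (0.14) in the difference of effects, Phlda3 (-0.069) and Zmat3 (-0.14) between the depleted groups, and Cdkn1a (0.24), Phlda3 (-0.22) and Zmat3 (-0.074) between the controls. As deposited, the sign turned for Ccng1 (-0.21) and Pmaip1 (0.057) in the difference of effects, Phlda3 (-0.60) and Zmat3 (-0.67) between the depleted groups, and Phlda3 (-0.67) and Zmat3 (-0.52) between the controls. With array weights, the sign turned for Polk (-0.022) in the aSMA line, Ccng1 (-0.91), Cdkn1a (-0.28) and Phlda3 (-0.30) in the difference of effects, Ccng1 (-0.0034), Phlda3 (-0.074) and Zmat3 (-0.14) between the depleted groups, and Cdkn1a (0.52) between the controls. With separation as covariate, the sign turned for Ccng1 (-0.28), Cdkn1a (-0.17), Phlda3 (-0.16), Trp53inp1 (0.54) and Zmat3 (-0.16) between the depleted groups, and Ccng1 (-0.76), Phlda3 (-0.28) and Polk (0.31) between the controls. Without low-separation arrays, the sign turned for Ccng1 (-0.021) and Phlda3 (-0.13) in the FAP line, Cdkn1a (-0.061), Phlda3 (-0.046), Trp53inp1 (0.12) and Zmat3 (-0.14) between the depleted groups, and Ccng1 (-0.84), Phlda3 (-0.34), Polk (0.075) and Trp53inp1 (0.10) between the controls.

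Each array was also left out in turn. In the FAP line, the ranges were the number of genes called 0 to 4, Cdkn1a -0.17 to 1.23 and Trp53inp1 -0.021 to 1.25. In the aSMA line, the ranges were the number of genes called 0 to 16, the target median 0.30 to 1.07, Btg2 -0.13 to 0.25 and Polk -0.15 to 0.24. In the difference of effects, the ranges were the number of genes called 0 to 1, the target median -0.36 to 0.32, the number of targets higher 1 to 6, Cdkn1a -0.031 to 1.37, Mdm2 -0.14 to 0.74, Pmaip1 -1.04 to 0.33, Ccng1 -0.61 to 0.62, Phlda3 -0.21 to 0.14 and Trp53inp1 -0.017 to 1.80. Between the depleted groups, the ranges were the number of genes called 374 to 1874, the target median -0.81 to 0.11, the number of targets higher 2 to 6, Cdkn1a -0.061 to 1.34, Mdm2 -0.81 to 0.076, Zmat3 -0.14 to 0.17, Phlda3 -0.046 to 0.21 and Trp53inp1 -1.18 to 0.63. Between the controls, the ranges were the number of genes called 508 to 3130, Cdkn1a -0.47 to 0.42 and Phlda3 -0.023 to 0.32. For the mean effect 0 to 1 genes were called. No paired analysis was possible because the labels give no link between mice of different groups. The replicate numbers follow only the order of deposit. Arrays near background limit what can be read from Zmat3, Polk and Phlda3.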
